A study of Mus musculus with 9 samples.

Results

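The genes described here are 10 genes of the neuromuscular junction, chosen by name from the 56805 genes of the deposited table. They are the acetylcholine receptor subunits Chrna1, Chrnb1, Chrnd, Chrne and Chrng and the synapse organizers Musk, Dok7, Rapsn, Lrp4 and Colq. They were measured by RNA sequencing of the left tibialis anterior, a fast muscle at the front of the shin, in 13-month-old male mice. The 3 genotypes were wild type (WT), Svil-KO and Svil-Mut, with 3 mice and 1 library for each mouse, and all 9 libraries carry the same batch label. Svil encodes supervillin, which binds actin and myosin beneath the muscle membrane, and the study asked about glucose handling and muscle performance when Svil is altered. The labels name no strain background and no treatment, and they do not say which part of Svil is altered in either genotype. Values are given below in the order WT replicates 1, 3 and 4, Svil-KO replicates 1, 3 and 4, and Svil-Mut replicates 1, 2 and 4.

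At the neuromuscular junction, acetylcholine from the motor nerve opens a receptor in the muscle membrane that is built of several subunits. The adult receptor holds the alpha, beta, delta and epsilon subunits, and the fetal receptor holds gamma in place of epsilon. Receptors are clustered when agrin from the nerve binds the receptor LRP4 on the muscle, which activates the kinase MuSK together with its cytoplasmic partner DOK7, and rapsyn then anchors the acetylcholine receptor. In innervated adult muscle most of these transcripts come from the few nuclei beneath the nerve ending, while loss of the nerve releases transcription of subunit genes such as Chrna1 and Chrng along the whole fibre, so that both are used as readouts of denervation.

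By limma, the main test, no junction gene passed across all genes in any of the 3 comparisons. DESeq2 called 1, Musk in Svil-KO against Svil-Mut (adjusted p = 0.0413), where it called 1.54% of the 13784 genes to which it gave an adjusted p. Of the 10 genes, 9 reached the level needed for the test and Chrng did not. Among these 9, limma and edgeR called 0 between Svil-KO and WT, 0 between Svil-Mut and WT and 0 between Svil-KO and Svil-Mut, where either tool called 0%, 0.0393% and 0.0458% of the 15279 genes tested. The largest difference among the tested genes was that of Musk, which was 1.52-fold higher in Svil-KO than in Svil-Mut (limma adjusted p = 0.266). Libraries did not overlap between genotypes for 2 of the 9 genes in Svil-KO against WT (Musk higher and Chrnb1 lower; 10.7% of all genes tested), for 1 in Svil-Mut against WT (Rapsn higher; 13.9% of all genes) and for 1 in Svil-KO against Svil-Mut (Musk higher; 15.2% of all genes). Chrng was nearly undetected, with 0 to 13 reads in a library, and each Svil-KO library had more of it than any library of the other genotypes once scaled for depth. Svil-KO replicate 1 and Svil-Mut replicate 1 both had 6 reads, so between these the order rests on the scaling alone.

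The libraries held 36234428 to 48762188 reads, with 19282 to 19988 genes detected in each. Svil itself averaged 8822 ± 497 normalized counts for WT, 6934 ± 407 for Svil-KO and 4379 ± 381 for Svil-Mut (SD, n = 3), so that 78.6% and 49.6% of the WT level remained. Transcripts of fast fibre genes such as Myh4 and Ckm filled every library, with sums over 9 fast fibre markers of 6095550 to 7764920 normalized counts. A normalized count is a read count divided by a size factor for the library, and differences between genotypes are on the log2(normalized count + 1) scale. In whole muscle, fewer junctions and less RNA from each junction cannot be told apart.

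The sequences upstream of 4 genes are shown first. Chrna1 and Chrng are the denervation readouts, Chrne is the adult counterpart of Chrng, and Musk had the largest difference. Each is the run of 250 bases before the start site that RefSeq gives on GRCm38.p6, read 5′ to 3′ on the strand of the gene, and 6 of the 10 genes had an entry. Capitals mark CANNTG, the letters of the E-box bound by factors of the MyoD family, and CCGGAA, the letters of the N-box bound by factors of the ETS family in nuclei beneath the nerve ending.
Chrna1, chr2:73580339-73580588, minus strand: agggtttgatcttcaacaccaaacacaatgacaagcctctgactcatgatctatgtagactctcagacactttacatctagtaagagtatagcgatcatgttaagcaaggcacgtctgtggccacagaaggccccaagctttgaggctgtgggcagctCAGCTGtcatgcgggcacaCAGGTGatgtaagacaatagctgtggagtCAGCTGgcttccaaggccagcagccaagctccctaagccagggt
Chrng, chr1:87205561-87205810, plus strand: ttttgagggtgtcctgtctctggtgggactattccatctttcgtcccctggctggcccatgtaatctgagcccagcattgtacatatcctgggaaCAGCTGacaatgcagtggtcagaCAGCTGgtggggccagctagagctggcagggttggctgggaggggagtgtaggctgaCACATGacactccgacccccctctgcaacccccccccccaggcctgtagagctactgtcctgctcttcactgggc
Chrne, chr11:70619195-70619444, minus strand: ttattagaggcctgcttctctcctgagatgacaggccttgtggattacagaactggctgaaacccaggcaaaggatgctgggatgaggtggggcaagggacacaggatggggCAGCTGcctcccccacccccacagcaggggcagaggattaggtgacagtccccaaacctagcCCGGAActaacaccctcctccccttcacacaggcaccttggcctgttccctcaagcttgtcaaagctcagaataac
Musk, chr4:58285712-58285961, plus strand: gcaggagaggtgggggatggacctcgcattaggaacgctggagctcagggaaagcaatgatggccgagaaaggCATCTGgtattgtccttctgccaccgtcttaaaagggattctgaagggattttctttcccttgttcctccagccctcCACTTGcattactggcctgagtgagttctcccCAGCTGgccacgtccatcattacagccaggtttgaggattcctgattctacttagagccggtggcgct
Both strands were searched, and no match of one motif overlapped a match of the other in these windows. Chrna1 held CANNTG at -92, -73 and -44, the position of its first base counted back from the start site, and Chrng held it at -155, -132 and -75. In each of these genes 2 of the 3 matches were CAGCTG. Musk had matches at -177, -100 and -68, of which the last was CAGCTG. Chrne held 1 match, a CAGCTG at -138, and it was the only one of the 6 genes with CCGGAA, at -76. Of 32851 RefSeq windows of the same length, 66.2% held CANNTG, 13% held CAGCTG, 1.26% held at least 2 copies of CAGCTG and 12% held CCGGAA. The window of Chrnb1 and the first of 2 windows listed for Dok7 held CANNTG and no CAGCTG, and the other Dok7 window held neither. The gene model of Chrng in GENCODE begins upstream of the start site in RefSeq, so its window lies within that model, and so do the last bases of the Chrne window. A match is a run of letters and was not tested for binding.

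Chrna1 encodes the alpha subunit, which binds acetylcholine (chr2:73563215-73580338, minus strand, GRCm38). Its normalized counts were 615, 1099 and 610.3 in WT, 963, 783 and 644 in Svil-KO and 987, 1097 and 871 in Svil-Mut. WT replicate 3 stood as high as the highest Svil-Mut library and the other WT libraries were the lowest of all 9, so the genotypes overlapped. The difference from WT was 0.08 ± 0.23 in Svil-KO and 0.40 ± 0.23 in Svil-Mut (log2 ± SE). Neither passed limma's test with Benjamini-Hochberg adjustment (adjusted p = 0.997 and 0.611), and the 95% interval of the difference in Svil-Mut ran from -0.11 to 0.90. Without WT replicate 3 the difference of Svil-Mut was 0.68, which again did not pass (limma adjusted p = 0.35), and that of Svil-KO was 0.36. Svil-KO and Svil-Mut differed by -0.32 ± 0.23 (log2 ± SE; limma adjusted p = 0.685), also with overlapping libraries.

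Chrng encodes the fetal gamma subunit (chr1:87204657-87212694, plus strand). It gave 0, 5 and 1 reads in WT, 6, 13 and 10 in Svil-KO and 6, 0 and 0 in Svil-Mut. As normalized counts these were 0, 5.06 and 1.02 in WT, 6.60, 13.2 and 7.97 in Svil-KO and 6.11, 0 and 0 in Svil-Mut. The Svil-KO libraries lay above all others, and the lowest of them was close to Svil-Mut replicate 1. For the 3 libraries at 0, the 95% counting interval reached 3.49 to 4.04 normalized counts, and a floor of 3 reads was 2.84 to 3.28. Summed over libraries and scaled for depth, Svil-KO had 4.43 times the WT level (95% interval 1.81 to 13.1) and 4.75 times the Svil-Mut level (1.94 to 14.0). Svil-Mut had 0.934 times the WT level (0.25 to 3.50). These intervals and the limit for a count of 0 cover counting error only, and the values rest on 29 reads in Svil-KO and 6 in each of the other genotypes. With limma run on all 27965 genes detected in any library, the difference of Svil-KO was 2.10 ± 0.96 from WT (log2 ± SE; adjusted p = 0.916) and 2.37 ± 0.96 from Svil-Mut (adjusted p = 0.634). A pseudocount of 10 in place of 1 reduced them to 0.69 and 0.70. The exact 2-sided permutation p over libraries was 0.1 for both, the smallest that 3 against 3 can give.

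Chrne encodes the adult epsilon subunit (chr11:70614883-70619216, minus strand). Libraries gave normalized counts of 479, 759.9 and 578 in WT, 499, 448 and 496 in Svil-KO and 657, 896 and 459 in Svil-Mut. The Svil-KO libraries were close together at the low end, while Svil-Mut covered nearly the whole range of the 9 libraries. The widest of its 3 differences was that of Svil-KO from Svil-Mut, at -0.43 ± 0.24 (log2 ± SE; limma adjusted p = 0.578). Per kilobase of exon, Chrng amounted to 0.114% ± 0.14 of Chrne for WT, 0.797% ± 0.35 for Svil-KO and 0.126% ± 0.22 for Svil-Mut (SD, n = 3). The highest share in a library was 1.20%, in Svil-KO replicate 3, so that epsilon far exceeded gamma in every library. The ratio of Chrne to Chrna1 per kilobase was 2.09 ± 0.34 for WT, 1.61 ± 0.34 for Svil-KO and 1.74 ± 0.38 for Svil-Mut (SD, n = 3), and the genotypes overlapped.

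Chrnb1 encodes the beta subunit, which fetal and adult receptors share (chr11:69784036-69795943, minus strand). It stood at 983, 1203 and 1047 in WT, 939.8, 913 and 822 in Svil-KO and 829.8, 1019.6 and 1275 in Svil-Mut. All 3 Svil-KO libraries lay below all 3 WT libraries, and Svil-Mut overlapped both. The difference of Svil-KO from WT was -0.27 ± 0.15 (log2 ± SE; 95% interval -0.61 to 0.07) and did not pass (limma adjusted p = 0.997). Chrnd encodes the delta subunit (chr1:87190607-87200070, plus strand) and lies next to Chrng. Its counts, normalized, were 176, 168 and 116 in WT, 216, 92.7 and 159 in Svil-KO and 126, 186 and 183 in Svil-Mut. The highest and the lowest of these 9 values were both Svil-KO. Its differences ran from -0.14 to 0.11 (log2) over the 3 comparisons. EdgeR and DESeq2 gave Chrnd the opposite sign in Svil-KO against WT, at 0.03 and 0.02 where limma gave -0.04.

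**Figure D1:**
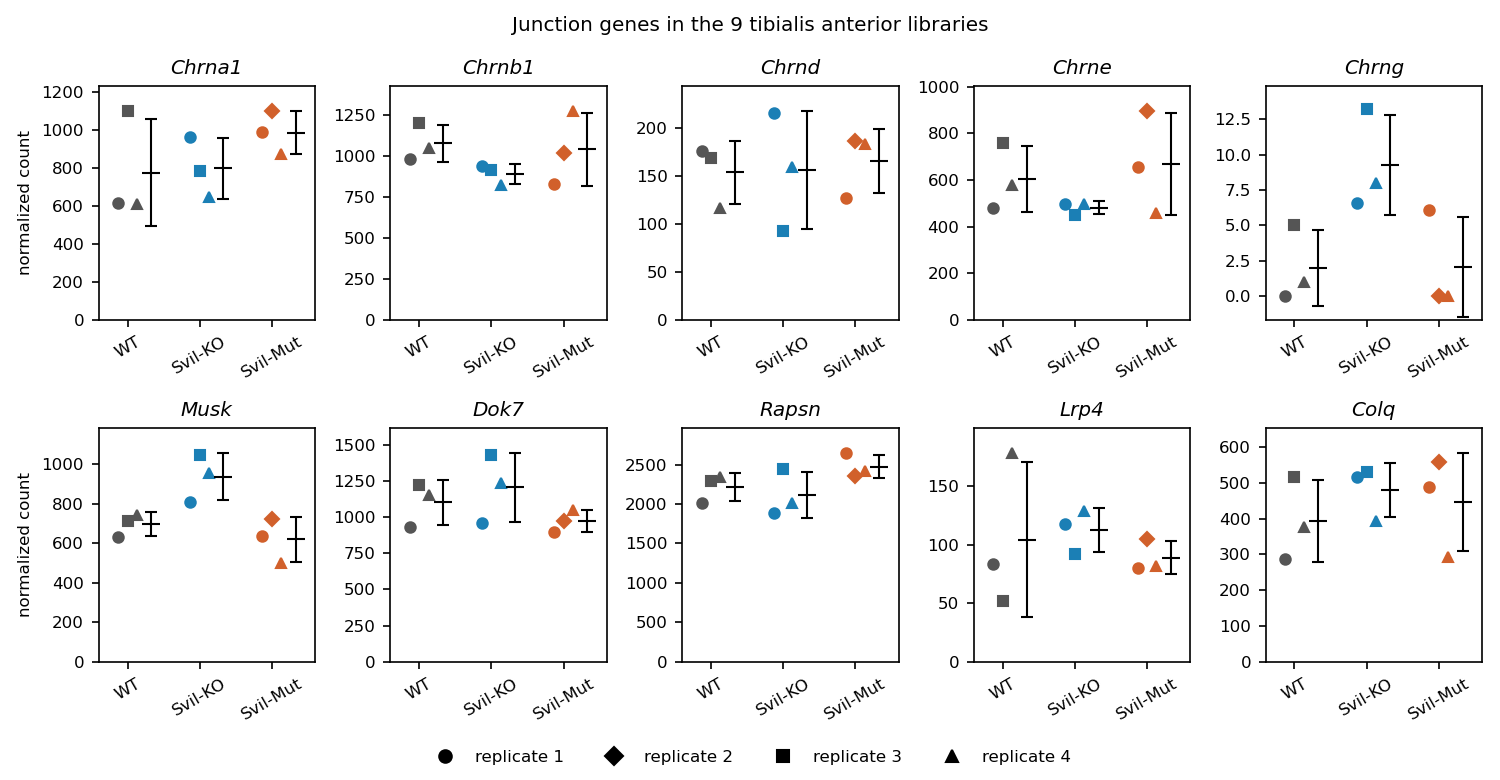
Normalized counts (y axes) of the 10 junction genes in WT, Svil-KO and Svil-Mut (x axes), with 1 marker per library, its shape giving the replicate number, and the mean ± SD of each genotype (n = 3) as black bars. The 3 Svil-KO libraries of Musk lie at 809 to 1046, above all others, and no library of Chrng exceeds 13.2.

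Musk encodes the receptor tyrosine kinase at the centre of the clustering pathway (chr4:58285960-58374303, plus strand). Its normalized counts were 630.1, 714 and 745 in WT, 809, 1046 and 956 in Svil-KO and 636, 724 and 499 in Svil-Mut. The lowest Svil-KO library exceeded the highest of the other 6, and WT and Svil-Mut overlapped. Svil-KO was 1.34-fold above WT (95% interval 1.05 to 1.71) and 1.52-fold above Svil-Mut (1.19 to 1.94), which were log2 differences of 0.42 ± 0.16 and 0.60 ± 0.16 (SE). The limma p for this gene alone was 0.0228 against WT and 0.0031 against Svil-Mut, ranks 239 and 178 among the 15279 genes, where 4.11% and 10.2% of genes had a p under 0.05. After adjustment over all genes it did not pass (adjusted p = 0.997 and 0.266), nor did it by edgeR's quasi-likelihood test (adjusted p = 0.9997 and 0.262). DESeq2 called Musk in Svil-KO against Svil-Mut (adjusted p = 0.0413), where it called 1.54% of the 13784 genes to which it gave an adjusted p. It called no other junction gene. Of 15264 genes with an adjusted p, it called 0.0262% between Svil-KO and WT and 1.13% between Svil-Mut and WT. Over the 19 alternative fits the log2 difference of Svil-KO from Svil-Mut ran from 0.46 to 0.72 with an adjusted p of 0.0413 to 0.682, and that of Svil-KO from WT from 0.34 to 0.52 with an adjusted p of 0.916 to 1. The difference of Svil-Mut from WT was -0.18 ± 0.16 (log2 ± SE; limma adjusted p = 0.766).

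Slow fibre markers, like Musk, were higher in Svil-KO than in Svil-Mut, without passing the test. The summed normalized count of the 7 slow fibre markers was 78876 to 117606 for WT, 74836 to 115531 for Svil-KO and 37921 to 63502 for Svil-Mut. Svil-Mut thus lay below Svil-KO without overlap while WT and Svil-KO overlapped. Mb made up most of each sum, so these ranges mainly describe Mb. In Svil-KO against Svil-Mut all 7 markers had positive log2 differences (median 1.92), and none passed by limma. Libraries did not overlap for 2 of the 7, Mb and Tnni1 (15.2% of all genes). Svil-KO replicate 1 stood apart, with 2476 normalized counts of Myh7, the slow myosin heavy chain, against 147 and 53.4 in the other Svil-KO libraries. Myh7 was at 136, 14.3 and 174 in Svil-Mut, so its libraries overlapped. The median was 0.96 without this library and 1.09 without Svil-Mut replicate 2, and all 7 differences stayed positive in both cases (chosen after seeing the data). Svil-KO replicate 1 had the least Musk of its genotype, and Svil-KO replicate 3, which had the most, had the smallest slow fibre sum of its genotype. Mb made up 69834 of the 74836 in that sum. Within Svil-KO, Tnni1, Myl2 and Myl3 were also lowest in replicate 3, while Myh7, Tnnt1 and Tnnc1 were lowest in replicate 4. The part of these markers in the Musk difference was not tested. Of the 5 red blood cell markers, 4 were lower in Svil-KO than in Svil-Mut without overlap of libraries (median log2 difference -2.16). Their sum varied widely in Svil-Mut, at 6545, 14264 and 49200 in replicates 1, 2 and 4. It was 2627 to 6208 in Svil-KO and 4413 to 8134 in WT, a range that held Svil-Mut replicate 1. Of the 9 fast fibre markers, 5 were lower in Svil-KO than in Svil-Mut without overlap, and 2, Myh1 and Myh2, were higher. No gene of these lists passed by limma. The sum of the 12 Schwann cell markers overlapped among genotypes, at 3486 to 4307 in WT, 3472 to 5135 in Svil-KO and 3024 to 4172 in Svil-Mut. Of the 9 motor axon markers, the defining genes Chat, Slc18a3 and Nefl were at 0 in all 9 libraries, and the whole list summed to 83.0 to 166 normalized counts. Most of that sum was Stmn2, at 64.8 to 149 normalized counts, and Prph was also found in every library, at 2.04 to 24.2. Slc5a7, Nefm, Nefh and Snap25 reached at most 9.90 in a library.

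Dok7 encodes the cytoplasmic activator of MuSK (chr5:35056766-35087839, plus strand). Libraries gave 929.8, 1225 and 1154 in WT, 957, 1431 and 1235 in Svil-KO and 895, 978 and 1052 in Svil-Mut. The means stood in the same order of genotypes as those of Musk, with overlapping libraries, and Svil-KO differed from Svil-Mut by 0.29 ± 0.16 (log2 ± SE; limma adjusted p = 0.571). Lrp4 encodes the agrin receptor (chr2:91457511-91513779, plus strand). Its levels were 83.1, 51.6 and 178 in WT, 118, 91.7 and 128 in Svil-KO and 80.4, 105 and 81.4 in Svil-Mut. The lowest and the highest of the 9 values were both WT, which left a 95% interval of -0.61 to 1.17 (log2) around the difference of 0.28 between Svil-KO and WT. Leaving out WT replicate 3 gave -0.13, and leaving out WT replicate 4 gave 0.76.

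Rapsn encodes rapsyn, the anchor of the receptor (chr2:91035620-91045729, plus strand). Normalized counts were 2015, 2295 and 2346 in WT, 1891, 2447 and 2015 in Svil-KO and 2646, 2361 and 2416 in Svil-Mut. All 3 Svil-Mut libraries lay above all 3 WT libraries, though the nearest were 2361 and 2346. The difference was 0.16 ± 0.11 (log2 ± SE; 95% interval -0.09 to 0.41; limma adjusted p = 0.688). Colq encodes the collagen tail that tethers acetylcholinesterase to the synaptic matrix (chr14:31523082-31591343, minus strand). Its libraries gave 288, 516 and 377 in WT, 515, 531 and 394 in Svil-KO and 488, 558 and 293 in Svil-Mut, and the 3 genotypes overlapped widely. The differences from WT were 0.31 ± 0.27 in Svil-KO and 0.17 ± 0.27 in Svil-Mut (log2 ± SE). In the GENCODE annotation the exons of Colq share 199 bases (5.23%) with Gm49387, those of Rapsn share 4 bases with Gm13778, and those of the other 8 genes share none with another gene.

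**Figure D2:**
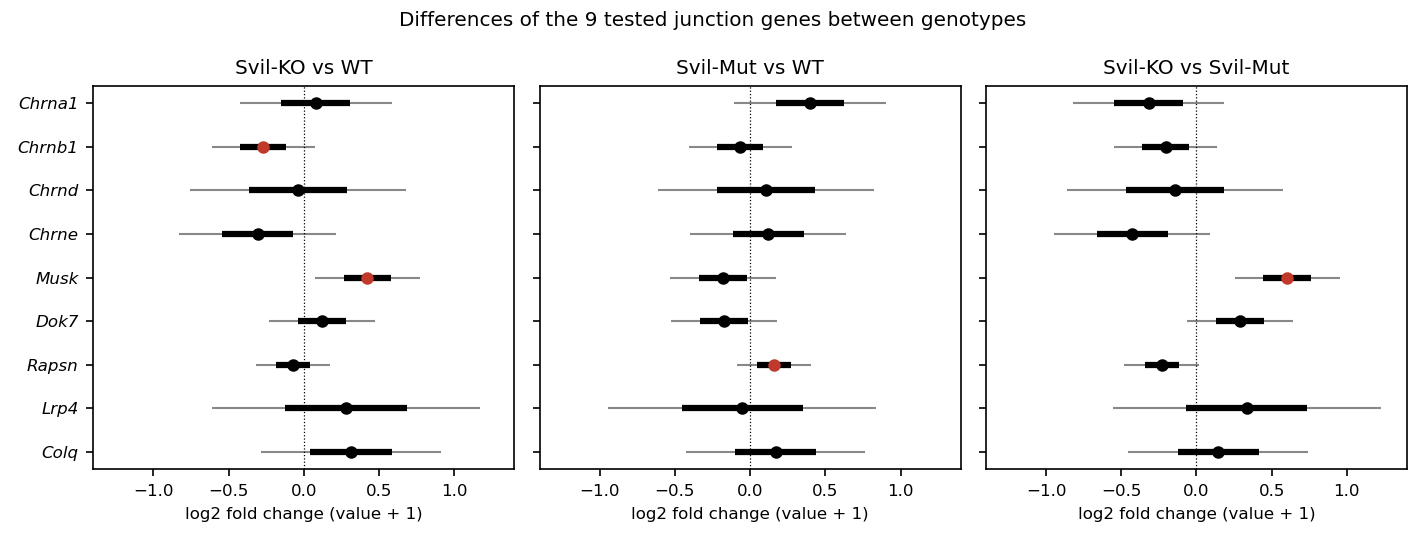
Differences between genotypes in log2(normalized count + 1) (x axes) for the 9 tested junction genes (rows), as the limma estimate (point), its SE (thick bar) and its 95% interval (thin bar), with red points where the libraries of the 2 genotypes do not overlap. The intervals of Musk lie above 0 in Svil-KO against WT (0.07 to 0.77) and against Svil-Mut (0.25 to 0.96), and every other interval includes 0.

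Of the 4 tested subunits, 1 had a positive and 3 a negative difference in Svil-KO against WT (median -0.15), 3 and 1 in Svil-Mut against WT (median 0.11) and 0 and 4 in Svil-KO against Svil-Mut (median -0.26, log2). Of the 5 organizers, 4 were positive in Svil-KO against WT (median 0.28), 2 in Svil-Mut against WT (median -0.05) and 4 in Svil-KO against Svil-Mut (median 0.29). Over all genes tested the medians were 0.0031, -0.0046 and 0.0089, and 50.6%, 49.3% and 51.4% of the differences were positive. These comparisons share libraries in pairs, so their signs are not independent of each other. Before adjustment, the limma p was under 0.05 for 1 of the 9 tested junction genes between Svil-KO and WT (4.11% of all genes), 0 between Svil-Mut and WT (10% of all genes) and 1 between Svil-KO and Svil-Mut (10.2% of all genes), each time Musk.

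Levels of different genes were compared as normalized counts per kilobase of exon. In WT the order was Rapsn at 1231 ± 99.0, Chrnb1 at 426 ± 44.6, Chrne at 358 ± 84.3, Dok7 at 258 ± 36.1, Musk at 184 ± 15.7, Chrna1 at 177 ± 64.0, Colq at 103 ± 30.3, Chrnd at 46.7 ± 9.89, Lrp4 at 9.93 ± 6.28 and Chrng at 0.487 ± 0.643 (SD, n = 3). Rapsn thus stood 2.89-fold above the next gene, and Lrp4 was the lowest of the 9 tested. The neighbours Chrnb1 and Chrne, Chrne and Dok7, and Musk and Chrna1 overlapped between libraries, and the other neighbours did not. The order in Svil-KO was the same on this scale. In Svil-Mut, Chrna1 (225 ± 25.7) and Musk (164 ± 30.04) exchanged places and did not overlap. With the length of the longest transcript in place of all exon bases, Dok7 had rank 3 and Chrne rank 4 in WT, while Dok7 had rank 2, Chrnb1 rank 3 and Chrne rank 4 in Svil-KO.

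**Figure D3:**
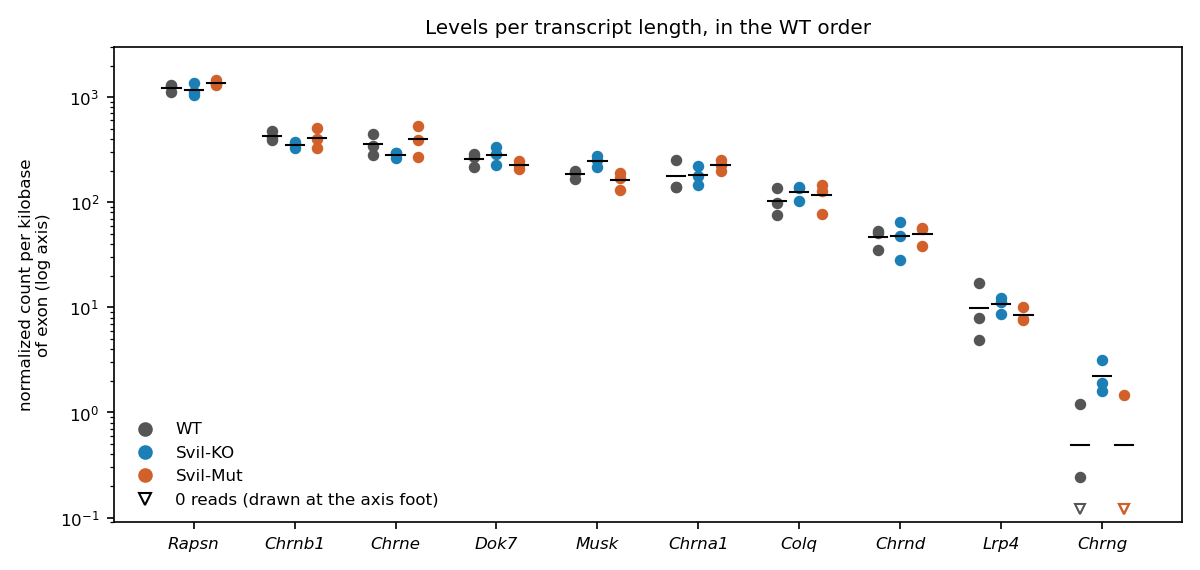
Normalized counts per kilobase of exon (y axis, log scale) of the 10 junction genes in the order of their WT means (x axis), with 1 point per library, short bars for the mean of each genotype, and open triangles for libraries with 0 reads. Rapsn lies at 1049 or above in every library, and Chrng lies below every other gene.

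The ratio of Musk to Rapsn separated the genotypes. It was chosen after the values were seen and has no test. Musk alone already separated Svil-KO from the other genotypes, and Rapsn alone separated Svil-Mut from WT. The separation by their ratio is therefore no added support. How many ratios of other gene pairs separate the genotypes was not counted. The ratio of normalized counts was 0.313, 0.311 and 0.317 in WT, 0.428, 0.427 and 0.474 in Svil-KO and 0.240, 0.307 and 0.206 in Svil-Mut. No library of one genotype reached the range of another, although Svil-Mut replicate 2 came close to WT. The SD among WT libraries was 0.0032 for this ratio, while the ratio of Musk to Dok7 had an SD of 0.0481 there and overlapped between WT and Svil-Mut.

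Correlations between junction genes over the 9 libraries had both signs. Of the 36 pairs of tested genes, 19 had a positive Pearson correlation of log2 values and 17 a negative one (median 0.05, range -0.59 to 0.66). The highest were those of Chrna1 with Colq (0.66), Musk with Dok7 (0.64) and Chrna1 with Chrne (0.63), and the lowest were those of Chrnb1 with Musk and Chrnd with Rapsn (both -0.59). With the mean of each genotype removed, 21 pairs were positive and 15 negative (median 0.06), with a wider range. Chrne with Colq then stood highest (0.87), followed by Chrna1 with Colq (0.77) and Dok7 with Rapsn (0.73), and Chrnd with Rapsn lowest (-0.93). Chrna1, Chrne and Colq were positively correlated with each other both ways. Without the 2 libraries farthest from the median of Chrna1 (WT replicates 1 and 4), its r was 0.45 with Colq and 0.75 with Chrne. Without the 2 farthest for Chrne (WT replicate 3 and Svil-Mut replicate 2), that of Chrne with Colq fell to 0.26. All correlations over the 9 libraries use the same libraries and size factors. The genes most like Chrna1 among 11651 genes with a mean of at least 50 were Cct4, a subunit of the TRiC chaperonin (r = 0.92, rho = 0.93), Farsb, a subunit of phenylalanyl-tRNA synthetase (r = 0.92), 5730409E04Rik (r = 0.91), the ubiquitin-like modifier Ufm1 (r = 0.91) and the RNA-binding protein gene Hnrnpdl (r = 0.90). Without the 2 libraries farthest from the median of Chrna1, WT replicates 1 and 4, these were 0.84 to 0.93. The genes most like Chrng were Dhx30, an RNA helicase (r = 0.95), Tnip1 (r = 0.94), Zfp174 (r = 0.93), Gm5380 (r = 0.92) and Ap5z1 (r = 0.92), and these rest on the few reads of Chrng. They are the highest of 11652 values, and no other junction gene was among the 5 genes most like Chrna1 or Chrng.

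**Figure D4:**
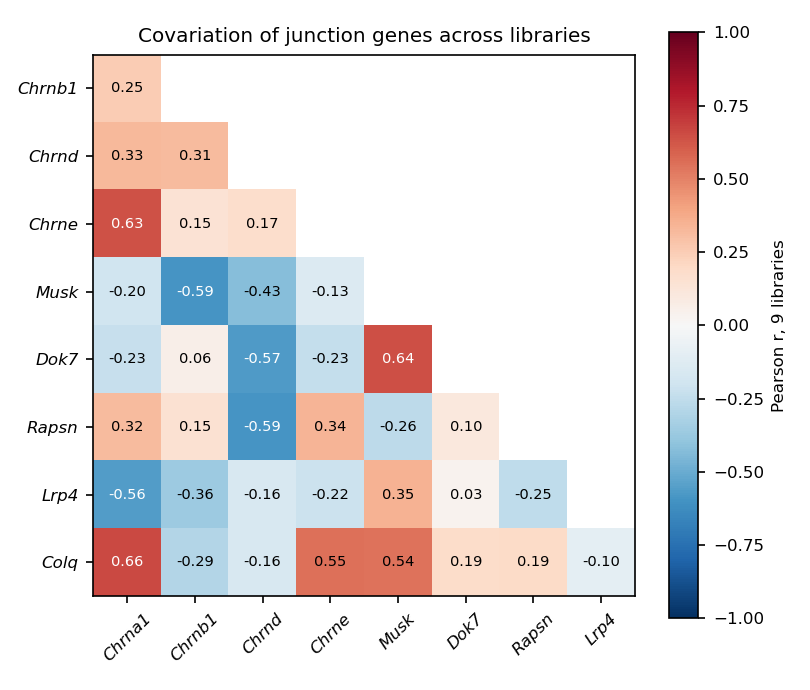
Pearson correlation (colour scale and printed values) of log2(normalized count + 1) over the 9 libraries for each pair of the 9 tested junction genes (rows and columns). Positive and negative values are mixed, from -0.59 to 0.66, and the 3 pairs among Chrna1, Chrne and Colq are positive (0.55 to 0.66).

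Other genes of the junction were followed through 5 lists, and 0 genes of any list passed over all genes tested by limma in either direction. In the list of the agrin pathway and other postsynaptic genes, 39 of 39 were tested, and 28 had positive differences in Svil-KO against WT, 20 in Svil-Mut against WT and 26 in Svil-KO against Svil-Mut (medians 0.07, 0.00033 and 0.08), beside 50.6%, 49.3% and 51.4% of all genes. The 4 with the smallest p were Syne1, Sntb1, Hspg2 and Dtna. Syne1, which encodes the nesprin that holds nuclei beneath the junction, was at 1578 ± 127 in Svil-Mut and 1099.8 ± 131 in WT (log2 difference 0.52, limma adjusted p = 0.33). Sntb1, a syntrophin of the dystrophin complex, was at 214 ± 47.9 in Svil-KO against 110.4 ± 24.3 in WT (log2 difference 0.95, limma adjusted p = 0.997). In Svil-Mut Sntb1 was at 201 ± 102 (log2 difference from WT 0.77, limma adjusted p = 0.483), and the libraries of neither genotype overlapped with WT. Hspg2, the matrix proteoglycan perlecan, was at 1117 ± 121 in Svil-KO and 896 ± 110.4 in Svil-Mut, and Dtna, alpha-dystrobrevin, at 5336 ± 92.3 in Svil-Mut and 4651 ± 523 in WT (SD, n = 3). Agrn and Ache are named outside the rule for named genes, after their values were seen. Agrn, which encodes agrin, was at 191 ± 142 for WT, 191 ± 54.6 for Svil-KO and 197 ± 47.8 for Svil-Mut, and Ache, which encodes acetylcholinesterase, was at 2450.1 ± 393, 2547 ± 118 and 2677 ± 535 in the same order (SD, n = 3).

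The neuregulin and ETS genes act in transcription beneath the nerve ending. Of the 10 listed, 9 were tested, and Nrg1, which encodes the ligand neuregulin, had at most 0.797 normalized counts in a library. Medians were 0.20, 0.21 and -0.02 (log2) for Svil-KO and for Svil-Mut against WT and for Svil-KO against Svil-Mut. Gabpa, the ETS subunit that binds the N-box, was at 1470.2 ± 135 in Svil-KO, 1124 ± 97.9 in WT and 1150.4 ± 101 in Svil-Mut (SD, n = 3; Svil-KO against WT 0.39 ± 0.12, log2 ± SE, limma adjusted p = 0.997). Its libraries did not overlap between Svil-KO and WT. Its partner Gabpb1 was at 276 ± 46.3 in Svil-KO and 352 ± 60.7 in Svil-Mut, and Erbb2, a neuregulin receptor, was at 161 ± 6.09 and 104 ± 20.4 in the same order (SD, n = 3; neither passed). Egr1, an immediate early transcription factor, had normalized counts of 144, 189 and 87.6 in WT, 2159, 107 and 84.5 in Svil-KO and 6695, 1661 and 1753 in Svil-Mut. Svil-KO replicate 1 stood with the Svil-Mut libraries, and the difference of 4.32 ± 1.03 between Svil-Mut and WT did not pass (log2 ± SE; limma adjusted p = 0.266). Without Svil-KO replicate 1 it passed (adjusted p = 0.0109), as it did with only the 2 genotypes compared in the fit (adjusted p = 0.0255).

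The denervation list held 18 genes, all of them tested. Of these, 14 had positive differences in Svil-KO against WT, 11 in Svil-Mut against WT and 10 in Svil-KO against Svil-Mut (medians 0.17, 0.11 and 0.03), beside 50.6%, 49.3% and 51.4% of all genes. The list mixes genes that rise after denervation with genes that fall, such as Dach2. A count of positive signs or a median of the list therefore has no direction of denervation. Before adjustment, 0, 4 and 6 of them had a limma p under 0.05, against 4.11%, 10% and 10.2% of all genes. Dach2, a repressor of myogenin that falls after denervation, was at 386, 429 and 591 in WT, 479.8, 461 and 684 in Svil-KO and 328, 235 and 263 in Svil-Mut. The Svil-Mut libraries were the lowest 3 of 9, and Svil-KO against Svil-Mut gave 0.96 ± 0.22 (log2 ± SE; limma adjusted p = 0.188). Myh3, the embryonic myosin heavy chain, was at 275, 211 and 199 in WT, 264, 432 and 233 in Svil-KO and 134, 90.7 and 181 in Svil-Mut. Here too the Svil-Mut libraries were the lowest 3 of 9 (Svil-KO against Svil-Mut 1.19 ± 0.30, log2 ± SE; limma adjusted p = 0.244). Myod1, the myogenic factor, was at 2863 ± 685 in Svil-Mut and 1830 ± 189 in WT, and Cdkn1a, a cell cycle inhibitor, at 949.7 ± 379 and 433 ± 72.8 (SD, n = 3; log2 differences 0.62 and 1.07, limma adjusted p = 0.292 and 0.23). DESeq2 called these 4 genes in the comparisons named (adjusted p = 0.00784 for Dach2, 0.0255 for Myh3, 0.025 for Myod1 and 0.00295 for Cdkn1a). Of the genes to which it gave an adjusted p, it called 1.54% in Svil-KO against Svil-Mut and 1.13% in Svil-Mut against WT. Myog, which encodes myogenin and is named here after its values were seen, was at 125, 140 and 112 in WT, 161, 185 and 80.5 in Svil-KO and 89.6, 203 and 147 in Svil-Mut, with overlapping genotypes.

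The remaining lists were small. The 5 glycosylation genes linked to congenital myasthenia were all tested, with medians of -0.06, -0.02 and -0.04 (log2) in the order of comparisons above. Gmppb, a subunit of the enzyme that makes GDP-mannose, was at 154 ± 22.4 in Svil-KO against 223 ± 41.9 in WT (SD, n = 3; log2 difference -0.52, limma adjusted p = 0.997). Gfpt1 was at 1008 ± 87.1 in Svil-KO and 813 ± 88.9 in Svil-Mut, and Alg2 at 843 ± 95.3 and 1075 ± 224 in the same order (SD, n = 3). Dpagt1 averaged 859 ± 46.8 for Svil-KO, 790 ± 13.1 for WT and 858 ± 53.4 for Svil-Mut (SD, n = 3), and its libraries did not overlap between Svil-KO and WT (log2 difference 0.12, limma adjusted p = 0.997). Of 11 nicotinic subunit genes outside the muscle receptor, 4 reached the level for the test and 3, Chrna6, Chrnb3 and Chrnb4, had no read in any library. The tested ones were low, with genotype means of 7.76 to 16.1 for Chrna9, 19.4 to 48.6 for Chrna2, 69.5 to 105 for Chrna10 and 15.1 to 25.7 for Chrna4, and none passed.

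**Figure D5:**
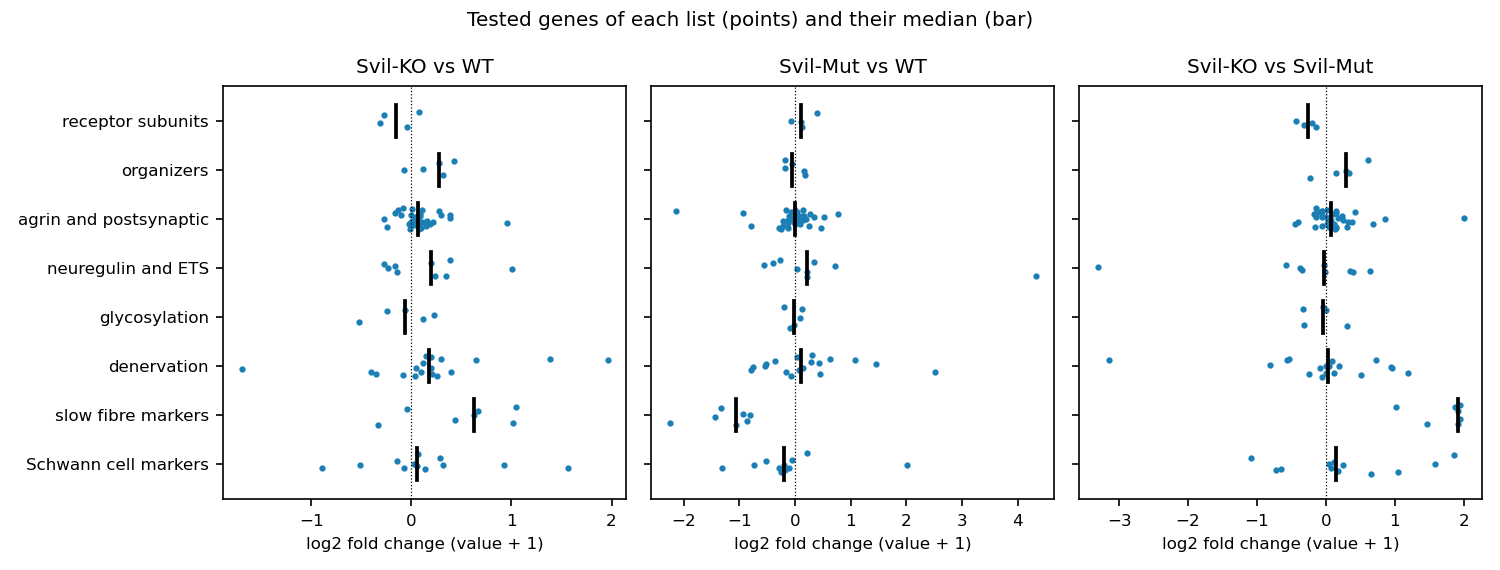
Differences in log2(normalized count + 1) (x axes, a separate range for each comparison) of the tested genes of 8 lists (rows), with 1 point per gene, spread vertically for sight, and a bar at the median of the list. The subunits and organizers lie close to 0 beside the slow fibre markers, whose median is 1.92 in Svil-KO against Svil-Mut, and the far point of the neuregulin and ETS row is Egr1 (4.32 in Svil-Mut against WT).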

How the data were processed

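RNA of 9 tibialis anterior muscles, 1 library per mouse, was turned into full-length cDNA by oligo(dT) priming (SMARTer, low input) and tagmented with Nextera XT, per the labels' protocols. Strand is not kept by this kit, so reads of overlapping or antisense genes cannot be told apart. Per the submitters' processing notes, HISAT2, featureCounts and DESeq2 were used on mm10. Tool versions and annotation: not given in the sources used here. Signal values, which the authors deposited for 56805 genes, are the number of reads over a size factor of the library. In each library 99.99% to 100% of nonzero values equalled whole multiples of 1 step (tolerance 0.001), which recovered whole reads. Without molecular identifiers, reads need not be separate molecules.

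From these values limma 3.58.1 with a mean-variance trend (R 4.3.3) was fitted to log2(normalized count + 1), all 9 libraries together, with genotype as the only factor. Genes with a normalized count of at least 10 in at least 3 libraries were tested (15279), and an adjusted p under 0.05 was a call. DESeq2 1.42.0 and edgeR 4.0.16 were run on the recovered reads, and with them other pseudocounts (0.5 and 10), no filter, a mean of at least 50, equal totals, no variance trend, only 2 genotypes, a replicate block and leaving out each library. The limma fit was tested on simulated data with changes larger than those of the tested junction genes. That run does not show whether differences of their size could be called. Per-kilobase levels used the exon bases of GENCODE M21 (GRCm38), which need not be the authors' annotation, and upstream sequences came from RefSeq (GRCm38.p6). Python 3.11.15, scipy 1.17.1 and matplotlib 3.10.9 were used.

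The junction genes and all lists were chosen with earlier results of these data known. Named are all 10 junction genes, Svil, up to 4 genes of each list with the smallest limma p, and up to 5 genes most correlated with Chrna1 and with Chrng among genes with a mean of at least 50. Lists are described by counts and medians beside those of all genes. The libraries of a genotype differed from each other in 53.7% to 63.9% of genes by a chi-square test of counts. This is more than counting error, so none was the same library sequenced again. The test cannot tell libraries of different mice from separately prepared libraries of the same mouse. The p-values weigh a difference of means against the spread between libraries. That spread can include library preparation as well as differences between mice.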

Additional observations from a re-analysis of the deposited data

Results flagged for a closer look

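Svil transcripts were higher in Svil-KO than in Svil-Mut, by 0.67 ± 0.086 (log2 ± SE; limma adjusted p = 0.0261), which is the test of the difference between the 2 genotypes. The library means were 6934 and 4379 normalized counts, and the call was lost without any one of 6 libraries (adjusted p up to 0.11). Against WT, Svil-Mut differed by -1.01 ± 0.086 and passed (adjusted p = 0.00094), while Svil-KO differed by -0.35 ± 0.086 and did not (log2 ± SE; limma adjusted p = 0.997).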

How the results depend on the processing

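The number of genes called in Svil-KO against WT was 0 by limma and edgeR and 4 by DESeq2. In Svil-Mut against WT it was 6, against 19 with a pseudocount of 10, 16 with a mean of at least 50, 14 with only 2 genotypes in the fit, 172 by DESeq2 and 4 to 18 when single libraries were left out. In Svil-KO against Svil-Mut it was 7, against 212 by DESeq2 and 4 to 13 when single libraries were left out. The number of junction genes called was 0 in each comparison under every alternative, except 1 (Musk, Svil-KO against Svil-Mut) by DESeq2.

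Of the 513 values of the 27 differences of tested junction genes under 19 alternative fits, 486 kept their sign and their side of the threshold, 26 changed sign and 1 (Musk by DESeq2) passed. These 26 belonged to 12 of the differences, and the cause was not tested. When single libraries were left out, Svil-KO against WT ran from -0.068 to 0.36 for Chrna1, -0.31 to 0.29 for Chrnd, -0.011 to 0.28 for Dok7, -0.18 to 0.0044 for Rapsn and -0.13 to 0.76 for Lrp4 (log2). Svil-Mut against WT ran from -0.22 to 0.086 for Chrnb1, -0.081 to 0.29 for Chrnd, -0.12 to 0.37 for Chrne, -0.46 to 0.42 for Lrp4 and -0.035 to 0.45 for Colq, and Svil-KO against Svil-Mut from -0.42 to 0.19 for Chrnd and -0.13 to 0.33 for Colq. EdgeR and DESeq2 gave Chrnd 0.025 and 0.020 in Svil-KO against WT.

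The replicate numbers were not used to pair libraries in the main fit. Deviations of same-numbered libraries from their genotype means correlated at -0.06 to 0.04 in 7 pairs, 0 of them over 0.1, and not every library correlated best with its own number. Between WT and Svil-KO, same-numbered libraries correlated at 0.026, 0.044 and 0.038 and the others at -0.035 to -0.0023. Pairs with Svil-Mut had no such pattern, and whether the numbers mark a pairing is not known. With a replicate block 0, 7 and 6 genes were called in the 3 comparisons and no junction gene, and Chrnd was at -0.12 and Chrne at -0.052 in Svil-Mut against WT and Chrnd at 0.080 in Svil-KO against Svil-Mut. Depth limits Chrng, at 0 to 13 reads in a library, where 3 reads are 2.39 to 3.30 normalized counts.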
